A study of Mus musculus with 12 samples.

Results

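The genes described here are 5 ligands of the ErbB receptors (Nrg1, Hbegf, Areg, Ereg and Tgfa) and 3 of the receptors (Egfr, Erbb2 and Erbb3). They were chosen by gene symbol from the count and TPM tables, and a shared symbol would have been settled by the highest total count, which was needed for 0 of the 8. They are 8 of the 53801 genes in the count table, and 8 of 8 were among the 14964 genes abundant enough to be tested. The family was proposed with results of these data in view, so the tests below set each difference against the spread between libraries and are not independent support for the choice.

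RNA was sequenced in bulk from cells labelled as heart macrophages of C57BL/6N mice after myocardial infarction, made by tying off the left anterior descending coronary artery. All 12 libraries share that infarction, and no uninjured heart is among them. The 4 groups, with 3 libraries each, were Bhlhe41dTomato-Cre+/- CCR2low and Bhlhe41dTomato-Cre+/- CCR2hi (called Bhlhe41Cre here), and WT CCR2low and WT CCR2hi. CCR2low and CCR2hi name the sorted level of CCR2, the receptor for the chemokine CCL2. The allele name places a dTomato-Cre cassette at Bhlhe41, which encodes a transcriptional repressor, in 1 copy, and no floxed target gene is named in the labels. The labels call the mice male, and ages, the time since infarction and how many mice each library holds were not found in the sources used here. The p values therefore measure the spread between these libraries, which may be technical.

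Total counts were 17.7 to 20.83 M per library (1 M is 1e+06). Xist, the transcript of the inactive X chromosome, had 1403 to 3699 counts in Bhlhe41Cre libraries and at most 3 in WT libraries. This goes against the male label of the Bhlhe41Cre mice. Xist separated the genotypes in every library. A difference between genotypes below, or in the interaction, therefore cannot be told apart from a difference in sex make-up. The sum of 4 Y-linked genes was 105 and 182 counts in the Bhlhe41Cre libraries numbered 3, against 668 to 1741 in the others, so these libraries stand apart and results were also computed without them. Bhlhe41 itself had 13.3 to 26.0 CPM (counts per 1e+06, on TMM-scaled library sizes) in CCR2low and 6.81 to 9.45 CPM in CCR2hi cells of Bhlhe41Cre, against 32.3 to 41.2 CPM in CCR2low and 27.1 to 45.4 CPM in CCR2hi cells of WT. Ccr2 message overlapped between the Bhlhe41Cre gates, with 60.8 to 96.7 CPM in CCR2low and 70.8 to 89.4 CPM in CCR2hi. The WT gates did not overlap, at 17.65 to 38.5 CPM in CCR2low and 42.05 to 86.7 CPM in CCR2hi.

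The macrophage label was checked against 15 macrophage markers. Together they took 2.99 to 3.33% of counts in CCR2low and 0.830 to 1.09% in CCR2hi cells of Bhlhe41Cre, against 3.40 to 3.70% in CCR2low and 0.243 to 0.566% in CCR2hi cells of WT. The 11 fibroblast markers took 0.210 to 0.511% in CCR2low and 3.88 to 4.97% in CCR2hi cells of Bhlhe41Cre, against 0.492 to 0.818% in CCR2low and 7.37 to 8.25% in CCR2hi cells of WT. The CCR2hi libraries thus held more fibroblast marker RNA than macrophage marker RNA, which goes against their label. In both genotypes all 15 macrophage markers were higher and all 11 fibroblast markers were lower in CCR2low than in CCR2hi. These shares move with every comparison of the gates below, and their part in those results was not tested. In bulk RNA, fewer cells of a type and less RNA per cell cannot be told apart.

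**Figure D1:**
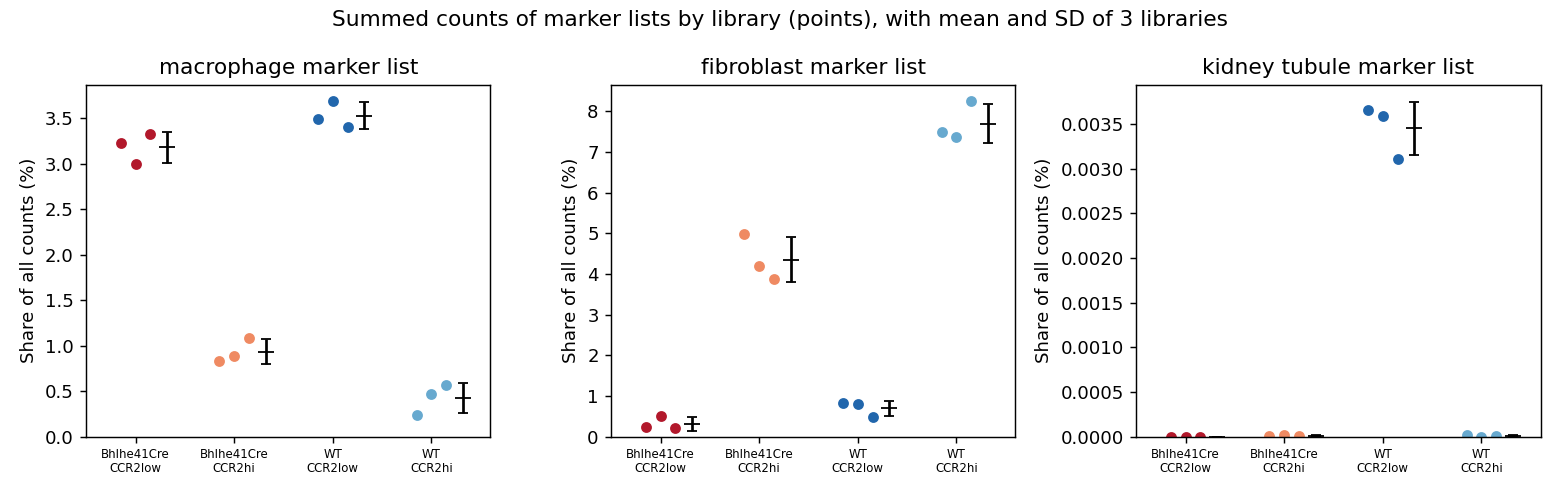
Each panel plots 1 marker list, with its summed counts as a percentage of all counts of a library on the y axis and the 4 groups on the x axis. Points are libraries and bars are the mean and SD of 3; the macrophage list was at 3.18 ± 0.172% in Bhlhe41Cre CCR2low and 0.426 ± 0.165% in WT CCR2hi, and the fibroblast list at 0.318 ± 0.168% in Bhlhe41Cre CCR2low and 7.70 ± 0.477% in WT CCR2hi. The kidney tubule list, described with Egf, was at 0.00311 to 0.00366% in WT CCR2low and at most 2.06e-05% in the other libraries.

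ErbB receptors are cell surface tyrosine kinases that pair up when a ligand binds. EGFR, the product of Egfr, is bound by HB-EGF, amphiregulin, epiregulin and TGF-alpha, the products of Hbegf, Areg, Ereg and Tgfa. Neuregulin 1, the product of Nrg1, binds ErbB3 and ErbB4, while ErbB2 has no known ligand and serves as the partner of the others. Most ligands are made as membrane proteins and released by cleavage. In the heart, neuregulin 1 is known as a growth and survival signal that cardiomyocytes receive through ErbB2 and ErbB4, and macrophages are a known source of amphiregulin in tissue repair.

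On GRCm38, the assembly also called mm10, the genes lie on 6 chromosomes. Nrg1 is at chr8:31814551-32884029, Tgfa at chr6:86195223-86275719, Egfr at chr11:16752203-16918158, Erbb2 at chr11:98412470-98437716 and Erbb3 at chr10:128567523-128589652. Ereg (chr5:91074622-91093646) and Areg (chr5:91139599-91148432) are neighbours on the same strand, 46.0 kb apart. RefSeq's promoter table for GRCm38.p6 held 4 of the 8 genes. Shown are the 250 bases before the RefSeq start of Areg, because Areg differed between the gates in the direction opposite to its neighbour Ereg on TMM scaling, and of Egfr and Erbb2, the receptors that were both lower in CCR2low. Each is printed 5′ to 3′ on the plus strand, which is the strand of the gene. For Erbb2 the RefSeq start lies downstream of the GENCODE start given above, so the last bases of its window lie inside the gene as GENCODE places it. Capitals mark TGACGTCA, the cAMP response element, and the GC box GGGCGG or its reverse complement.
Areg, chr5:91139349-91139598: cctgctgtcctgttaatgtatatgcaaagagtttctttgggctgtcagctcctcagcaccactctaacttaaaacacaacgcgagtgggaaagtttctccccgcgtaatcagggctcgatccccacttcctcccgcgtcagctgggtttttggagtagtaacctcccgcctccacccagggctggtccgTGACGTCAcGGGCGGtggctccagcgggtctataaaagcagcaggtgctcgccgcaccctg
Egfr, chr11:16751953-16752202: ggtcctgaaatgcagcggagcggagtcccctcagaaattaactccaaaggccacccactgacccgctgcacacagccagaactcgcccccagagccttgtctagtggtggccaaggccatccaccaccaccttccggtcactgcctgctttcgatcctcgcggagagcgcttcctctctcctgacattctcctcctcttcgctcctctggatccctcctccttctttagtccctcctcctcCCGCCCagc
Erbb2, chr11:98412234-98412483: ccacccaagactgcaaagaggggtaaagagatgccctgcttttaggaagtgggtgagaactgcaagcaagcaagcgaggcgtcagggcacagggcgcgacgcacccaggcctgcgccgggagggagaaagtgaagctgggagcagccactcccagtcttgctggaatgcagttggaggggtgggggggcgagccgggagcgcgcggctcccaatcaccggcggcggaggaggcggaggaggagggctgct
The Areg window held TGACGTCA with its first base 61 bases before the RefSeq start, and GGGCGG with its first base 52 bases before it. TGACGTCA was present anywhere in 1.55% of the 32851 windows in the table. GGGCGG on either strand was in 32.7% of all windows, in the Egfr window on the reverse strand and in none of the Erbb2 letters. The E-box CACGTG, which basic helix-loop-helix repressors such as the Bhlhe41 protein are known to bind, was in 6.02% of all windows, and the AP-1 element TGANTCA in 6.75%. Neither was in the windows of Areg, Tgfa, Egfr or Erbb2. Matches of letters are a description and not bound sites.

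Per transcript length, the order of the 8 genes differed between groups, with Hbegf or Areg highest on average in each. In Bhlhe41Cre CCR2low, Areg (42.3 ± 2.52 TPM, SD, n = 3) and Hbegf (40.5 ± 11.8 TPM) led and overlapped, ahead of Nrg1 (9.73 ± 3.45 TPM) and Ereg (5.94 ± 3.40 TPM), which also overlapped. In Bhlhe41Cre CCR2hi, Hbegf (84.3 ± 22.1 TPM) led, and Ereg (42.1 ± 17.3 TPM) and Areg (29.9 ± 1.95 TPM) overlapped behind it. WT CCR2low had Areg (24.8 ± 4.69 TPM) above Hbegf (16.5 ± 0.483 TPM) without overlap, and the other 6 genes were at or below 3.13 TPM in every library. In WT CCR2hi, Hbegf (86.6 ± 47.5 TPM) and Ereg (43.4 ± 16.4 TPM) overlapped, and Egfr (29.7 ± 5.81 TPM) overlapped with Ereg. Within each of these libraries, Hbegf was above Ereg and Ereg above Egfr. Areg (7.76 ± 3.08 TPM) was below all 3. Tgfa and Erbb3 were the lowest or among the lowest in every group, at most 1.22 TPM in any library.

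**Figure D2:**
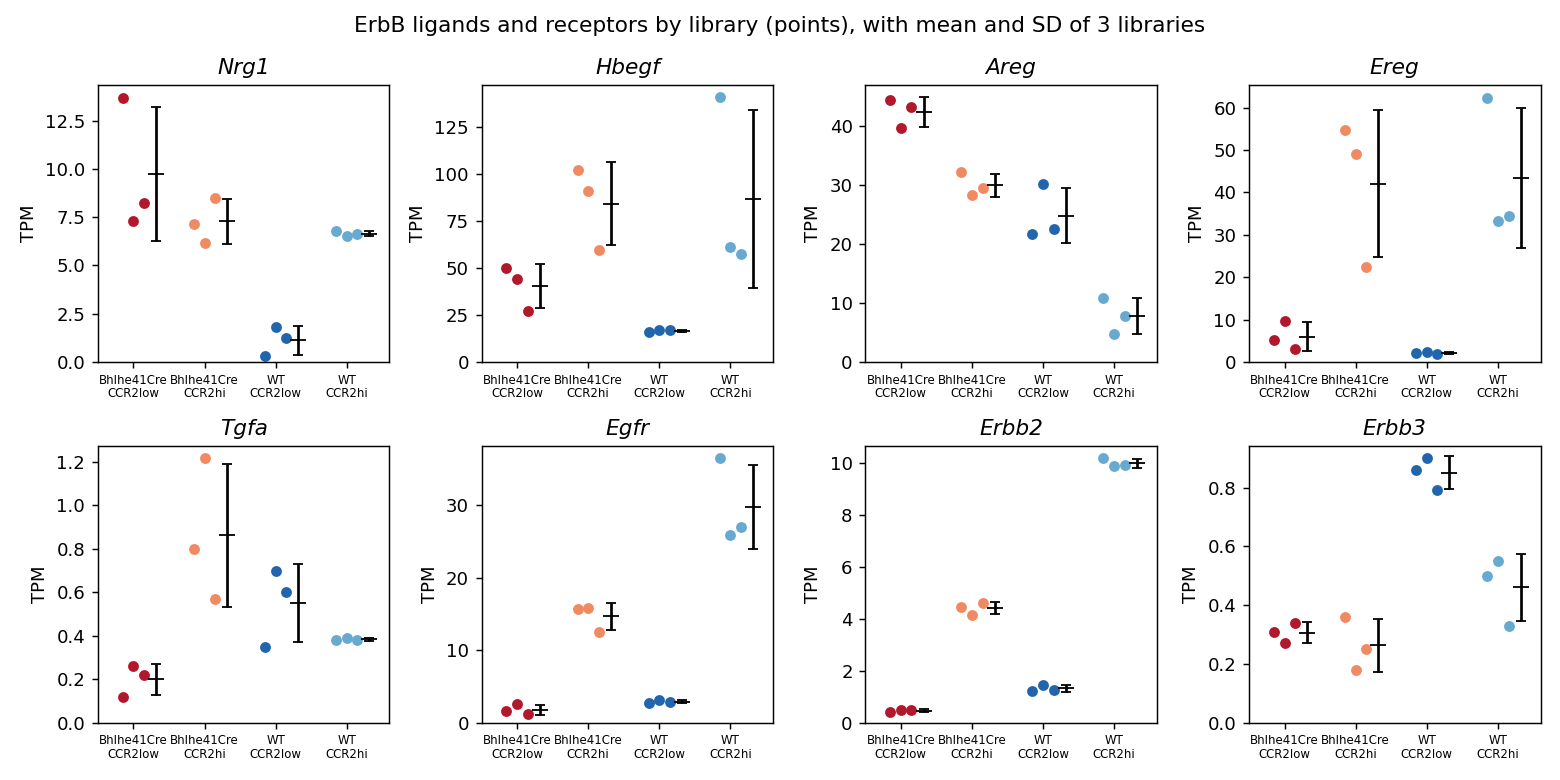
Each panel plots 1 gene in TPM on a linear y axis that starts at 0, with its own scale, for the 4 groups on the x axis. Points are libraries and bars are the mean and SD of 3; Nrg1 was at 0.29 to 1.8 TPM in WT CCR2low and at 6.17 to 13.7 TPM in the other 9 libraries.

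The make-up of the ligand pool, taken as the summed TPM of the 5 ligands, differed between the gates. Areg made up 43.7 ± 7.83% of it in CCR2low and 18.9 ± 4.72% in CCR2hi cells of Bhlhe41Cre, against 54.8 ± 3.13% in CCR2low and 5.52 ± 1.49% in CCR2hi cells of WT. Ereg made up 5.92 ± 3.17% in CCR2low and 24.8 ± 5.38% in CCR2hi cells of Bhlhe41Cre, against 4.54 ± 0.381% in CCR2low and 30.6 ± 2.24% in CCR2hi cells of WT. The Areg share was higher in every CCR2low library than in every CCR2hi library, and the Ereg share was lower in every one. Nrg1 took 9.78 ± 2.44% of the pool in Bhlhe41Cre CCR2low and 2.36 ± 1.45% in WT CCR2low, and these libraries did not overlap. Being shares within 1 library, these values do not depend on how libraries are scaled to each other. The whole pool was 98.7 ± 15.8 TPM in CCR2low and 164 ± 39.6 TPM in CCR2hi cells of Bhlhe41Cre, against 45.0 ± 5.98 TPM in CCR2low and 145 ± 66.6 TPM in CCR2hi cells of WT.

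**Figure D3:**
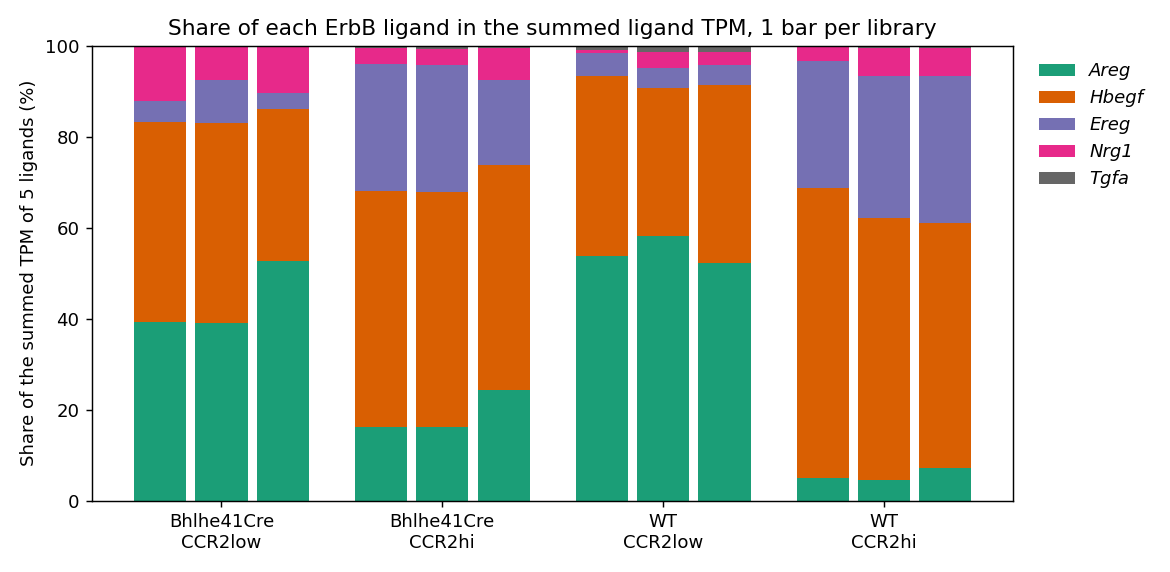
Each bar is 1 library, stacked by the percentage of each ligand in the summed TPM of Areg, Hbegf, Ereg, Nrg1 and Tgfa. Areg made up 39.1 to 52.7% in Bhlhe41Cre CCR2low and 52.2 to 58.3% in WT CCR2low, against 16.1 to 24.4% in Bhlhe41Cre CCR2hi and 4.44 to 7.23% in WT CCR2hi.

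Levels were compared with edgeR's quasi-likelihood test, and a gene was called at a Benjamini-Hochberg adjusted p under 0.05 over all genes tested. Changes are log2 fold changes ± SE on TMM-scaled counts, which set each gene against the bulk of genes in the library. CCR2low was compared with CCR2hi in each genotype, Bhlhe41Cre with WT in each gate, and the interaction is the gate difference in Bhlhe41Cre minus that in WT. The comparisons share groups with each other, so their calls are not independent. Since the macrophage share differs between the gates, each change was also computed with libraries scaled to the summed macrophage markers. This moved the median gene by -1.98 in the Bhlhe41Cre gates and -3.32 in the WT gates. Between genotypes the move was 0.13 in CCR2low and -1.20 in CCR2hi, and in the interaction it was 1.34. A call of lower between the gates or between genotypes in CCR2hi, or of higher in the interaction, is thus moved further in its own direction. That such a call holds under macrophage scaling is no added support for it.

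Between the gates of Bhlhe41Cre, 1 of 8 ErbB genes was called higher and 5 lower in CCR2low, against 24.9% and 29.1% of all genes tested. Between the gates of WT, 3 of 8 were called higher and 5 lower, against 29.8% and 30.0% of all genes. The median change of the 8 genes was -1.15 in Bhlhe41Cre and -2.21 in WT, beside -0.01 and 0.01 over all genes. Both directions together took most genes in each gate comparison, so a call by itself sets an ErbB gene little apart. Between genotypes, 4 of 8 were called higher and 4 lower in CCR2low, against 16.4% and 26.7% of all genes, and 2 higher and 2 lower in CCR2hi, against 16.2% and 15.9%. In the interaction 1 of 8 was called higher and 2 lower, against 4.74% and 7.85% of all genes. The median change of the 8 genes was 0.04 between genotypes in CCR2low, 0.12 in CCR2hi and -0.29 in the interaction, beside -0.18, -0.03 and -0.18 over all genes.

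Nrg1 was low in WT CCR2low and higher in each of the other groups. It had 13.7, 7.30 and 8.22 TPM in CCR2low and 7.17, 6.17 and 8.50 TPM in CCR2hi cells of Bhlhe41Cre, against 0.29, 1.8 and 1.24 TPM in CCR2low and 6.79, 6.52 and 6.63 TPM in CCR2hi cells of WT. The WT CCR2low libraries lay below all others without overlap, with 13 to 48 counts, while Bhlhe41Cre CCR2low and Bhlhe41Cre CCR2hi overlapped. Nrg1 was 11-fold higher in Bhlhe41Cre than in WT CCR2low cells (log2 fold change 3.46 ± 0.352, adjusted p = 3.12e-05), and 98.9% of genes tested changed by no more than that. Between the gates of Bhlhe41Cre, the change in CCR2low relative to CCR2hi was 0.65 ± 0.300 (adjusted p = 0.0815), and it turned to -1.32 (adjusted p = 0.00288) when libraries were scaled to the macrophage markers. In WT, Nrg1 fell by 2.46 ± 0.351 on the log2 scale in CCR2low (adjusted p = 4.26e-05). The gate difference itself differed between genotypes by 3.12 ± 0.462 (adjusted p = 0.00184). The call between genotypes in CCR2low, the call between the WT gates and the interaction held in each of their 23, 23 and 22 alternatives. Macrophage scaling was among these, but could hardly have removed the WT gate call or the interaction. The Bhlhe41Cre gate difference was called in 5 alternatives, among them those without Bhlhe41Cre CCR2low 2 (0.85, adjusted p = 0.0375), Bhlhe41Cre CCR2low 3 (0.88, adjusted p = 0.0462) or WT CCR2low 1 (0.82, adjusted p = 0.0149). WT CCR2low 1 is outside this comparison, and leaving it out moved the median gene by 0.158. Without Bhlhe41Cre CCR2low 1, the library at 13.7 TPM, the gate difference was 0.38 (adjusted p = 0.350). Between genotypes in CCR2hi, Nrg1 differed by 0.34 ± 0.304 (adjusted p = 0.414).

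Hbegf (chr18:36504927-36515805), which makes a membrane-anchored growth factor that is also the diphtheria toxin receptor in people, was lower in CCR2low than in CCR2hi in both genotypes. It had 49.8, 44.3 and 27.3 TPM in CCR2low and 102, 90.9 and 59.6 TPM in CCR2hi cells of Bhlhe41Cre, against 16.0, 16.8 and 16.9 TPM in CCR2low and 141, 61.1 and 57.3 TPM in CCR2hi cells of WT. CCR2low and CCR2hi libraries did not overlap in either genotype, and neither did the CCR2low libraries of the genotypes, while the CCR2hi libraries of the genotypes overlapped. It fell by 0.84 ± 0.293 in CCR2low of Bhlhe41Cre (adjusted p = 0.0264) and by 2.02 ± 0.304 in CCR2low of WT (adjusted p = 7.05e-05). The Bhlhe41Cre call was lost without Bhlhe41Cre CCR2low 3 (-0.51, adjusted p = 0.190), Bhlhe41Cre CCR2low 2 (-0.87, 0.0550), Bhlhe41Cre CCR2hi 1 (-0.70, 0.0993), Bhlhe41Cre CCR2hi 2 (-0.77, 0.0818), WT CCR2low 1 (-0.68, 0.0732) or both Bhlhe41Cre libraries numbered 3 (-0.88, 0.0505). WT CCR2low 1 is outside that gate comparison, and leaving it out moved the median gene by 0.158. With no filter on low counts the Bhlhe41Cre call was lost as well (-0.69, adjusted p = 0.179). Among CCR2low cells Hbegf was 2.46-fold higher in Bhlhe41Cre (1.30 ± 0.299, adjusted p = 0.00381), which missed the threshold under macrophage scaling (1.45, adjusted p = 0.0573). Among CCR2hi cells it differed by 0.12 ± 0.290 (adjusted p = 0.774), and without WT CCR2hi 1, the library at 141 TPM, by 0.64 (adjusted p = 0.0376). The interaction was 1.18 ± 0.415 (adjusted p = 0.0799) and was called in 5 alternatives, with the replicate number as a block (1.07, adjusted p = 0.0365) among them. Macrophage scaling was another of the 5 (2.73, adjusted p = 0.0115). It moved the median gene by 1.34 in the interaction, so its call is no added support.

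Areg, an EGFR ligand made by several kinds of immune cell, was, of the 5 ligands, the 1 called higher in CCR2low in both genotypes on TMM scaling, which macrophage scaling reversed. It had 44.4, 39.5 and 43.1 TPM in CCR2low and 32.1, 28.3 and 29.4 TPM in CCR2hi cells of Bhlhe41Cre, against 21.7, 30.2 and 22.4 TPM in CCR2low and 10.9, 4.71 and 7.70 TPM in CCR2hi cells of WT. The gates did not overlap within a genotype, nor the genotypes within a gate, so each gate was higher in Bhlhe41Cre and each genotype was higher in CCR2low. The change between the gates was 0.74 ± 0.222 in Bhlhe41Cre (adjusted p = 0.0121) and 2.03 ± 0.241 in WT (adjusted p = 8.02e-06), and both turned negative under macrophage scaling, at -1.26 (adjusted p = 0.00619) in Bhlhe41Cre and -1.40 (adjusted p = 0.00304) in WT. Per 10000 macrophage marker counts, Areg had 9.50 to 10.3 counts in CCR2low and 20.3 to 27.2 in CCR2hi cells of Bhlhe41Cre, against 4.79 to 6.11 in CCR2low and 6.30 to 27.4 in CCR2hi cells of WT. Between genotypes Areg was 4.24-fold higher in Bhlhe41Cre among CCR2hi cells (2.08 ± 0.241, adjusted p = 5.14e-05), which missed the threshold under macrophage scaling (0.78, adjusted p = 0.0867). Neutrophil markers moved with this difference, at 0.0821 to 0.125% of counts in Bhlhe41Cre CCR2hi and 0.00363 to 0.00812% in WT CCR2hi, and their part was not tested. Among CCR2low cells it was 1.73-fold higher (0.79 ± 0.223, adjusted p = 0.0117; 0.92, adjusted p = 0.124 under macrophage scaling). The interaction was -1.29 ± 0.324 (adjusted p = 0.0227); it was lost without any 1 of 6 libraries, with adjusted p up to 0.0847. Those libraries were Bhlhe41Cre CCR2low 1, all 3 of Bhlhe41Cre CCR2hi, and WT CCR2low 1 and 2. The interaction turned to 0.15 (adjusted p = 0.832) under macrophage scaling. The Bhlhe41Cre gate call was lost without both libraries numbered 3 (0.63, adjusted p = 0.0809), on library size alone (0.53, adjusted p = 0.0577), and with limma-trend on log2(TPM + 0.1) (0.50, adjusted p = 0.107) or log2(TPM + 1) (0.49, adjusted p = 0.0875).

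Ereg, the neighbour of Areg and another EGFR ligand, had the largest gate difference of the 8 genes in WT. It had 5.23, 9.64 and 2.95 TPM in CCR2low and 54.7, 49.1 and 22.3 TPM in CCR2hi cells of Bhlhe41Cre, against 2.00, 2.30 and 1.81 TPM in CCR2low and 62.3, 33.3 and 34.5 TPM in CCR2hi cells of WT. Every CCR2low library was below every CCR2hi library. Ereg fell by 2.62 ± 0.382 in CCR2low of Bhlhe41Cre (adjusted p = 6.01e-05, 6.16-fold) and by 4.04 ± 0.414 in CCR2low of WT (adjusted p = 2.12e-06, 16.4-fold). Both calls held in all 23 alternatives, of which macrophage scaling could hardly have removed them. Among CCR2low cells it was 2.90-fold higher in Bhlhe41Cre without overlap (1.54 ± 0.392, adjusted p = 0.00697). Among CCR2hi cells the genotypes overlapped (0.12 ± 0.355, adjusted p = 0.823). The interaction was 1.42 ± 0.527 (adjusted p = 0.0943) and was called in 5 alternatives. Among them were the replicate number as a block (1.35, adjusted p = 0.0180), without Bhlhe41Cre CCR2low 3 and without both libraries numbered 3 (1.39, adjusted p = 0.0484). Macrophage scaling was another of the 5 (2.92, adjusted p = 0.0113). It moved the median gene by 1.34 in the interaction, so its call is no added support.

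Tgfa, the classic EGFR ligand of epithelia, was scarce, with 7 to 46 counts per library. It had 0.12, 0.26 and 0.22 TPM in CCR2low and 0.80, 1.22 and 0.57 TPM in CCR2hi cells of Bhlhe41Cre, against 0.35, 0.70 and 0.60 TPM in CCR2low and 0.38, 0.39 and 0.38 TPM in CCR2hi cells of WT. The Bhlhe41Cre gates did not overlap, and the WT gates overlapped in TPM. In Bhlhe41Cre it fell by 1.46 ± 0.341 in CCR2low (adjusted p = 0.00263), which held in all 23 alternatives. Macrophage scaling, among these, could hardly have removed that call. In WT the change was 0.80 ± 0.329 (adjusted p = 0.0489). That call was lost in 20 of 23 alternatives, 10 of the 12 that leave out 1 library among them. Under macrophage scaling it reversed to -2.47. The Bhlhe41Cre CCR2hi libraries are outside this comparison, and leaving out any 1 of them gave 0.606 and moved the median gene by -0.203. The interaction was -2.26 ± 0.474 (adjusted p = 0.0101) and lost its call under macrophage scaling (-0.97, adjusted p = 0.215). Between genotypes Tgfa fell by 1.27 ± 0.344 in CCR2low (adjusted p = 0.00986), a call lost in 3 alternatives, macrophage scaling among them (-1.14, adjusted p = 0.123). In CCR2hi the change was 0.99 ± 0.326 (adjusted p = 0.0332), lost without any 1 of the 6 CCR2hi libraries and without both libraries numbered 3 (1.05, adjusted p = 0.0531). The neutrophil markers given beside Areg moved with this last difference as well, and their part was not tested.

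The receptors Egfr and Erbb2 moved together. Egfr had 1.54, 2.54 and 1.24 TPM in CCR2low and 15.7, 15.8 and 12.5 TPM in CCR2hi cells of Bhlhe41Cre, against 2.73, 3.13 and 2.87 TPM in CCR2low and 36.4, 25.8 and 27.0 TPM in CCR2hi cells of WT. Erbb2 had 0.40, 0.50 and 0.49 TPM in CCR2low and 4.46, 4.15 and 4.61 TPM in CCR2hi cells of Bhlhe41Cre, against 1.22, 1.46 and 1.27 TPM in CCR2low and 10.2, 9.86 and 9.90 TPM in CCR2hi cells of WT. For both genes the 4 groups kept the same order with no overlap between any of them, from Bhlhe41Cre CCR2low at the bottom to WT CCR2hi at the top, which is also the order of the group means of the fibroblast marker list. Means in Bhlhe41Cre CCR2low, Bhlhe41Cre CCR2hi, WT CCR2low and WT CCR2hi were 3.997, 42.1, 7.37 and 72.4 TPM for its marker Pdgfra. They were 163, 2235, 493 and 5832 TPM for Col1a1. Postn, unlike the rest of the list, broke the order, at 85.9, 1098, 69.1 and 3134 TPM. The mural marker list kept the same order, at 0.0144, 0.1595, 0.0465 and 0.1716% of counts. The part of fibroblast or mural cells in the receptor levels was not tested.

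Egfr fell by 2.63 ± 0.212 in CCR2low of Bhlhe41Cre (adjusted p = 4.31e-07) and by 2.73 ± 0.208 in CCR2low of WT (adjusted p = 2.23e-07). Erbb2 fell by 3.08 ± 0.170 in CCR2low of Bhlhe41Cre (adjusted p = 8.07e-08) and by 2.4 ± 0.153 in CCR2low of WT (adjusted p = 7.72e-08). These 4 calls held in all 23 alternatives, of which macrophage scaling could hardly have removed them. Between genotypes Erbb2 fell by 1.52 ± 0.174 in CCR2low (adjusted p = 6.00e-05) and by 0.83 ± 0.143 in CCR2hi (adjusted p = 0.000804). Egfr fell by 0.81 ± 0.193 in CCR2hi (adjusted p = 0.00666). Each of these calls held in all 23, of which macrophage scaling could hardly have removed those in CCR2hi. Egfr also fell by 0.71 ± 0.209 in Bhlhe41Cre CCR2low (adjusted p = 0.0149), but that call was lost in 10 of 23 alternatives, 7 of them leaving out 1 library, and without Bhlhe41Cre CCR2low 3 the value was -0.39 (adjusted p = 0.134). The other 6 such libraries were Bhlhe41Cre CCR2low 1, all 3 of Bhlhe41Cre CCR2hi, WT CCR2low 1 and WT CCR2hi 1. The CCR2hi libraries among them are outside this comparison. Leaving out any 1 of these gave -0.518 and moved the median gene by 0.192, so Egfr moved with the bulk of genes. The gate difference of Egfr differed between genotypes by 0.10 ± 0.285 (adjusted p = 0.846) and that of Erbb2 by -0.68 ± 0.224 (adjusted p = 0.0626).

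Erbb3, a receptor with a weak kinase that binds neuregulins, did not follow Egfr and Erbb2. It had 0.31, 0.27 and 0.34 TPM in CCR2low and 0.36, 0.18 and 0.25 TPM in CCR2hi cells of Bhlhe41Cre, against 0.86, 0.90 and 0.79 TPM in CCR2low and 0.50, 0.55 and 0.33 TPM in CCR2hi cells of WT. WT CCR2low was above all other groups without overlap, with 64 to 79 counts per library. In WT it rose by 1.25 ± 0.287 in CCR2low (adjusted p = 0.00204), which reversed to -2.08 under macrophage scaling, and in CCR2low it fell by 1.41 ± 0.292 in Bhlhe41Cre relative to WT (adjusted p = 0.00202), or by 1.28 (adjusted p = 0.0553) under macrophage scaling. Nrg1, whose protein binds ErbB3, was at its lowest in the same WT CCR2low libraries. The Bhlhe41Cre gates overlapped (0.48 ± 0.314, adjusted p = 0.219), as did the CCR2hi libraries of the genotypes (-0.64 ± 0.309, adjusted p = 0.132), and the interaction was -0.77 ± 0.426 (adjusted p = 0.246).

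**Figure D4:**
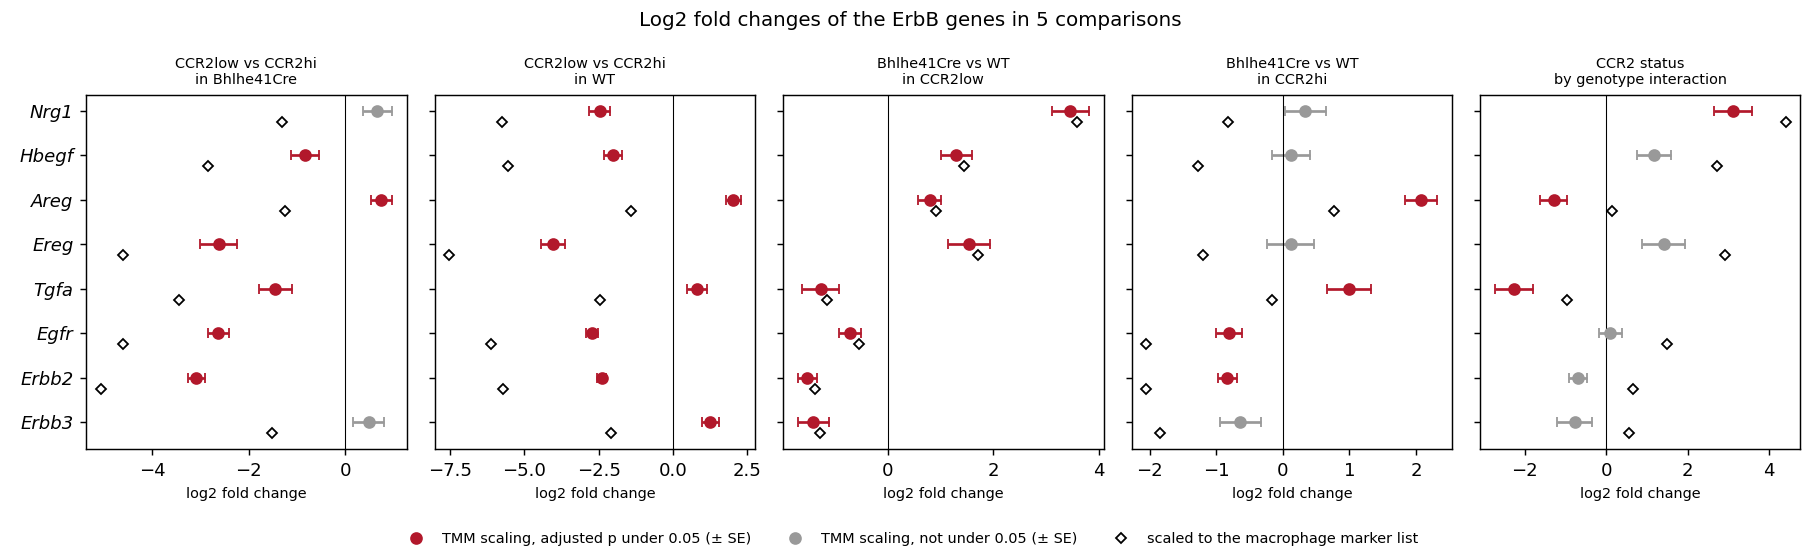
The 5 panels plot the log2 fold change of each gene on the x axis, with its own scale per panel, for 1 comparison each; circles with bars are the change ± SE on TMM scaling (red where the adjusted p is under 0.05) and open diamonds the change with libraries scaled to the macrophage markers. The diamonds lie to the left of the circles in both gate comparisons, where Nrg1 in Bhlhe41Cre and Areg and Erbb3 in both genotypes changed sign, as did Tgfa in WT, and Nrg1 stays near 3.46 between genotypes in CCR2low, with a diamond at 3.59.

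Of the 7 other genes of the family, 4 were abundant enough to test (Btc, Egf, Nrg2 and Nrg4). Erbb4, the neuregulin receptor of cardiomyocytes, had 0 to 8 counts per library, Epgn 0 to 4 and Nrg3 at most 1. Nrg4, a neuregulin that binds ErbB4, was counted 74, 41 and 71 times in CCR2low and 19, 14 and 16 in CCR2hi cells of Bhlhe41Cre, against 22, 38 and 72 in CCR2low and 18, 4 and 5 in CCR2hi cells of WT. It was higher in CCR2low by 2.10 in Bhlhe41Cre (adjusted p = 0.00271) and by 2.29 in WT (adjusted p = 0.00234). The WT change reversed to -1.12 under macrophage scaling, which moved the median gene by -1.98 between the Bhlhe41Cre gates. Btc, which encodes the EGFR and ErbB4 ligand betacellulin, lies 208.8 kb from Areg. It was scarce, counted 0, 6 and 1 times in CCR2low and 26, 24 and 15 in CCR2hi cells of Bhlhe41Cre. In WT it was counted 4, 3 and 4 times in CCR2low and 17, 9 and 9 in CCR2hi cells, and these gates overlapped in TPM. Btc fell in CCR2low by 2.97 in Bhlhe41Cre (adjusted p = 0.00198) and by 1.61 in WT (adjusted p = 0.0467). The WT call was lost without any 1 of the 6 WT libraries.

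Egf, the founding EGFR ligand and a known product of kidney tubule, was counted 2, 3 and 0 times in CCR2low and 4, 4 and 5 in CCR2hi cells of Bhlhe41Cre, against 27, 33 and 38 in CCR2low and 7, 5 and 3 in CCR2hi cells of WT. WT CCR2low lay above all other libraries. Egf fell by 4.10 ± 0.562 in Bhlhe41Cre CCR2low relative to WT CCR2low (adjusted p = 0.00016) and rose by 2.69 ± 0.474 in CCR2low of WT (adjusted p = 0.000264), which reversed to -0.57 under macrophage scaling. A list of 6 kidney tubule markers, chosen after these values were seen, moved the same way, at 616 to 750 summed counts in WT CCR2low and 0 to 4 in the other 9 libraries. Kap, an androgen-regulated gene of the tubule, had a mean of 60.0 TPM in WT CCR2low and was listed at 0 in the other groups. Adipocyte markers also stood out there, with 447, 857 and 15598 summed counts in WT CCR2low against 5 to 39 elsewhere. The part of RNA from such cells in the WT CCR2low values of Egf, Nrg1 and Erbb3 was not tested. Nrg2, a further neuregulin, was counted 14, 21 and 44 times in CCR2low and 5, 1 and 5 in CCR2hi cells of WT. It was higher in CCR2low of WT by 2.82 (adjusted p = 0.00236), which reversed to -0.35 under macrophage scaling. In Bhlhe41Cre it changed by 0.80 (adjusted p = 0.315).

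Release of the ligands depends on proteases and their helpers, of which 14 were listed, among them the main sheddase Adam17. In CCR2low, 8 rose and 5 fell in Bhlhe41Cre and 6 rose and 5 fell in WT, beside 24.9% and 29.1% of all genes in Bhlhe41Cre and 29.8% and 30.0% in WT. Adam8, a metalloprotease of myeloid cells, had 577 ± 24.0 TPM in CCR2low and 109 ± 16.3 TPM in CCR2hi cells of Bhlhe41Cre, against 306 ± 44.9 TPM in CCR2low and 15.3 ± 0.288 TPM in CCR2hi cells of WT. It rose in CCR2low by 2.65 ± 0.152 in Bhlhe41Cre (adjusted p = 8.07e-08) and by 4.73 ± 0.169 in WT (adjusted p = 3.76e-09), and its interaction was -2.08 ± 0.207 (adjusted p = 0.00021). Adam12 fell in CCR2low by 3.20 in Bhlhe41Cre and 2.79 in WT, and the rhomboid pseudoprotease Rhbdf1 by 2.85 and 2.54. The neuregulin-cleaving protease Bace1 fell by 2.39 and 2.28 (adjusted p at most 8.46e-07 for each of these genes). Group means of Adam12, Rhbdf1 and Bace1 kept the order of those of the fibroblast marker list, while those of Adam8 did not. The part of fibroblasts in these changes was not tested. Between genotypes 7 rose and 4 fell in CCR2low and 3 rose and 4 fell in CCR2hi, beside 16.4% and 26.7% of all genes in CCR2low and 16.2% and 15.9% in CCR2hi. Rhbdf2, the myeloid partner of Adam17, was higher in Bhlhe41Cre by 0.95 ± 0.130 in CCR2low (adjusted p = 0.000158) and by 1.16 ± 0.132 in CCR2hi (adjusted p = 4.61e-05), the CCR2hi change reversing to -0.10 under macrophage scaling, while Bace1 fell by 1.08 and 0.98 and Adam19 by 1.08 and 0.87. In the interaction 1 of 14 was lower, Adam8, beside 7.85% of all genes, and 1 was higher, beside 4.74%, namely Adam9 (0.97, adjusted p = 0.0465), a call lost without Bhlhe41Cre CCR2low 1 or 2, Bhlhe41Cre CCR2hi 3, or WT CCR2low 1 or 2 (adjusted p up to 0.120).

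Of 27 adaptors and kinases that carry ErbB signals, 13 rose and 4 fell in CCR2low of Bhlhe41Cre, and 10 rose and 9 fell in CCR2low of WT. Of all genes 24.9% rose and 29.1% fell in Bhlhe41Cre, and 29.8% and 30.0% in WT. The adaptor Grb2 rose by 1.12 and 1.75, the phosphoinositide kinase subunit Pik3cb by 1.42 and 1.64, and Nras by 1.03 and 0.93 in CCR2low of Bhlhe41Cre and WT, and all 3 turned negative under macrophage scaling. The phospholipase Plcg1 fell by 1.49 in Bhlhe41Cre and 1.13 in WT. Between genotypes 10 rose and 3 fell in CCR2low, with Braf at 1.58 ± 0.252, Sos1 at 1.07 ± 0.173 and Gab1 at 1.06 ± 0.164 (adjusted p at most 0.000435), beside 16.4% and 26.7% of all genes. In CCR2hi 2 rose and 2 fell, fewer of the 27 than the 16.2% and 15.9% of all genes, among them Grb2 (0.67), which reversed to -0.53 under macrophage scaling, Pik3r2 (-0.71) and Gab2 (-0.45). In the interaction 7 were higher and 2 lower, beside 4.74% and 7.85% of all genes, among the higher ones Pik3ca (1.10), Gab1 (1.13) and Sos1 (1.18).

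Of 22 genes of feedback and receptor turnover, 10 rose and 9 fell in CCR2low of Bhlhe41Cre and 8 rose and 8 fell in CCR2low of WT, beside 24.9% and 29.1% of all genes in Bhlhe41Cre and 29.8% and 30.0% in WT. Lrig1, which lowers ErbB receptor levels, fell by 3.06 in Bhlhe41Cre and 2.73 in WT, and the suppressor of cytokine signalling Socs5 by 1.75 and 1.42, in the same direction as Egfr and Erbb2. Spry1, a feedback inhibitor of receptor tyrosine kinase signals, fell by 2.58 in CCR2low of Bhlhe41Cre. Its mean was lower in CCR2low of WT as well, at 20.8 TPM against 117 TPM in CCR2hi. Between genotypes Spry1 fell by 1.87 ± 0.217 in CCR2low (adjusted p = 6.66e-05) and by 1.44 ± 0.206 in CCR2hi (adjusted p = 0.000226). Lrig1 fell between genotypes by 1.5 in CCR2low and 1.17 in CCR2hi, and the phosphatase Dusp6, which acts on ERK, by 1.31 in CCR2low. Group means of Lrig1, Socs5 and Spry1 kept the order of those of the fibroblast marker list, while those of Dusp6 did not. The part of fibroblasts in these changes was not tested. Between genotypes 4 rose and 8 fell in CCR2low, and 2 rose and 5 fell in CCR2hi, beside 16.4% and 26.7% of all genes in CCR2low and 16.2% and 15.9% in CCR2hi. Dusp5, an ERK phosphatase, rose by 1.41 ± 0.147 in Bhlhe41Cre CCR2hi (adjusted p = 2.23e-05) and by 1.68 ± 0.148 in CCR2low of WT (adjusted p = 5.85e-07), the WT change reversing to -1.70 under macrophage scaling. The interaction was lower for 2 of 22, Dusp5 (-1.24) and the phosphatase Ptpn1 (-1.05), which reversed to 0.17 and 0.32 under macrophage scaling. This count is near the 7.85% of all genes called lower.

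For each of the 8 genes the closest pattern over the 12 libraries was sought among 10538 genes, as the smallest root mean square difference of log2 CPM centred per gene. Egfr was closest to Fam114a1 (0.153), Lgalsl (0.163) and Clmp (0.169), and Erbb2 to Osbpl5 (0.164), Sardh (0.173) and Ptgis (0.193), beside spreads of 1.41 and 1.48 of the receptors themselves. Areg was closest to the adenosine receptor gene Adora2b (0.181), then Arl5c (0.239) and Bcl2l11 (0.267), with a spread of 1.10. Ereg was closest to Vcan, which encodes the matrix proteoglycan versican (0.393, spread 1.79), and Hbegf to Tnfrsf12a, the receptor of the cytokine TWEAK (0.276, spread 0.892). The nearest genes of Nrg1 were Abtb2 (0.504), Bclaf3 (0.658) and the chaperone Hsp90aa1 (0.726), beside a spread of 1.39. The nearest gene of Tgfa was Pim3 (0.330, spread 0.616) and that of Erbb3 was Zfp90 (0.247, spread 0.722). These are descriptions over libraries that share their groups.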

How the data were processed

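Bulk RNA sequencing of 12 libraries in 4 groups of 3 was analysed. Per the submitters' processing notes, CASAVA 1.8, STAR 2.4.0j, RSEM (version not given in the sources used here) and mm10 were used. The deposited count table holds the authors' expected counts per Ensembl gene, with 0 values not whole, and the deposited TPM table holds the authors' TPM. Columns named KD were matched to Bhlhe41dTomato-Cre+/- samples by gate and number, because they are the only other genotype in the tables. Other label fields of those samples are shifted, so groups come from titles.

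Expected counts were tested in R 4.3.3 with edgeR 4.0.16 (TMM, filterByExpr on the groups, robust glmQLFit and glmQLFTest, two-sided), fitting 4 group means over all 12 libraries, with 8 residual degrees of freedom. The biological coefficient of variation was 18.9%. Benjamini-Hochberg adjustment ran over 14964 genes per comparison. The procedure was tested on simulated data. Alternatives (22 planned, 1 added after the data were seen) used other scalings, DESeq2 1.42.0, limma 3.58.1 on counts or on log2(TPM + 0.1) and log2(TPM + 1), only the groups compared, the replicate number as a block, and fits without 1 library. TPM folds on such scales understate changes of low genes. Whether equal replicate numbers pair libraries was checked from residual correlations of the gates. In Bhlhe41Cre the correlations at equal numbers were 0.295, 0.145 and 0.500, all above the cut of 0.1. CCR2low 2 correlated more with CCR2hi 1 (0.304) than with CCR2hi 2, so pairing is clear for number 3 and not for 1 and 2. In WT the correlations at equal numbers were -0.0782, 0.0493 and -0.0415, and no pairing was seen. Replicates of a group correlated at 0.978 to 0.993 and differed by more than sampling noise.

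The members and all gene lists were chosen with earlier results of these data known, and the kidney marker list after the values were seen. Named genes were all family members and up to 4 genes per list and comparison, by lowest p among called genes with a mean of at least 5 CPM. Some genes that this rule names are not reported here. The symbol Nrdc was matched through its RefSeq synonym. Library totals of 17.7 to 20.83 M limit counting precision for genes with few counts.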

Additional observations from a re-analysis of the deposited data

Results flagged for a closer look

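For 3 of the 8 ErbB genes the test of the difference between genotypes in the gate difference (CCR2low minus CCR2hi in Bhlhe41Cre, minus the same in WT) passed the threshold in edgeR's quasi-likelihood fit, 1 higher and 2 lower, beside 4.74% and 7.85% of all genes. Nrg1 differed by 3.12 (adjusted p = 0.00184), with 0.29 to 1.8 TPM in WT CCR2low and at least 6.17 TPM in every other library. Areg differed by -1.29 (adjusted p = 0.0227), with gate differences of 0.74 in Bhlhe41Cre and 2.03 in WT. It was lost without any 1 of 6 libraries and was 0.15 (adjusted p = 0.832) under macrophage scaling. Tgfa differed by -2.26 (adjusted p = 0.0101), with gate differences of -1.46 in Bhlhe41Cre and 0.80 in WT, and was -0.97 (adjusted p = 0.215) under macrophage scaling. Markers were also lower in this test, 7 of 7 for neutrophils (median -3.76), 6 of 8 for cardiomyocytes, 4 of 6 for mesothelial and epicardial cells, 4 of 8 for mural cells and 7 of 15 for macrophages, and their part was not tested.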

How the results depend on the processing

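The number of ErbB genes called was within 1.5 times its value in 110 alternative counts and moved further in 4. It did so between genotypes in CCR2low under scaling to the macrophage markers (3, against 8), and in the interaction with DESeq2 (5, against 3) and with the replicate number as a block (5). Leaving out 1 library gave 2 to 5 calls in the interaction, 5 being the count without Bhlhe41Cre CCR2low 3. The block changed the ErbB gene calls already given for Hbegf and Ereg in the interaction, for Tgfa between the WT gates (0.79, adjusted p = 0.106) and between genotypes in CCR2hi (1.00, adjusted p = 0.0531), for Btc between the WT gates, and no other call of the family.

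Changes of sign in which the main or the alternative value was called occurred only under macrophage scaling. Between the Bhlhe41Cre gates they were Nrg1 -1.32, Areg -1.26, Erbb3 -1.52, Nras -0.95, Grb2 -0.87 and Pik3cb -0.56. Between the WT gates they were Areg -1.40, Tgfa -2.47, Erbb3 -2.08, Egf -0.57, Nrg2 -0.35, Nrg4 -1.12, Grb2 -1.56, Pik3cb -1.61, Nras -2.43, Ptpn1 -1.55 and Dusp5 -1.70. Between genotypes in CCR2hi they were Hbegf -1.28, Ereg -1.20, Tgfa -0.17, Rhbdf2 -0.10 and Grb2 -0.53. In the interaction they were Areg 0.15, Ptpn1 0.32 and Dusp5 0.17. Values called in neither fit changed sign too, among the 8 genes Nrg1 (-0.83 under macrophage scaling), Hbegf (down to -0.09) and Ereg (down to -0.10) between genotypes in CCR2hi, and in the interaction Erbb2 (up to 0.67), Erbb3 (0.56) and Egfr (-0.19).

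The share of higher among all called genes was 46.1, 49.8, 38.0, 50.4 and 37.7% in the Bhlhe41Cre gates, the WT gates, the genotypes in CCR2low, the genotypes in CCR2hi and the interaction. Macrophage scaling gave 0.509, 0.745, 47.2, 2.04 and 98.3%, library size alone 32, 44.3, 35.6, 61.8 and 19.5%, and RLE factors 47.8% in the interaction. Tgfa and Erbb3, with 7 to 79 counts per library, are the members that depth limits most.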
